A study of Mus musculus with 20 samples.

Results

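Abcg2, Abcb1a and Abcb1b encode the membrane pumps best known for exporting the DNA-binding Hoechst dye, and export of this dye defines the sorted cells whose RNA was measured here. The 3 genes, of 8251 named on the arrays by 1 symbol, were taken by their symbols in the probe-to-gene annotation of the arrays. Each had a single probe set (93626_at for Abcg2, 102910_at for Abcb1a and 93414_at for Abcb1b) among 12422 probe sets that were not controls, and all 3 passed the filter on dim signal, as did 10310 probe sets in all. The cells came from adult mice of the inbred strain C57BL/10SnJ, for which the labels name no engineered allele and no treatment. The 4 groups, of 5 samples each, were the side population (SP) of skeletal muscle, the main population (MP) of skeletal muscle, the SP of bone marrow and the MP of bone marrow. SP cells keep little dye and MP cells keep it. The labels do not say whether the 5 samples of a group are separate animals or separate sorts. The p-values therefore measure the spread between these samples, and that spread may be technical.

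ATP-binding cassette (ABC) transporters move molecules across membranes at the cost of ATP. Abcg2, also called Bcrp1, is a half-size transporter that works as a dimer and also exports porphyrins, the precursors of heme. Abcb1a and Abcb1b are the rodent counterparts of the human multidrug resistance pump P-glycoprotein, which is encoded there by a single gene. In mouse bone marrow the SP is known to hold blood stem cells, and loss of Abcg2 is known to remove most of the SP. Abcg2 and Abcb1a are also known from endothelial cells, where they keep drugs out of tissues.

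By RefSeq's gene order in GRCm38.p6, Abcb1a, Abcb1b and the phospholipid transporter gene Abcb4 follow each other on chromosome 5, and Abcg2 lies on chromosome 6. RefSeq lists 3 start sites for Abcg2 and 1 each for Abcb1a and Abcb1b in the table used, and the single Abcg2 probe set cannot tell RNA from these starts apart. The windows around the 5 starts are shown because the levels of all 3 genes differed between the tissues. Each holds 250 bases before and 50 after the start, 5′ to 3′ on the plus strand of GRCm38.p6, with matches to 7 motifs in capitals on either strand.
Abcg2 start 1, chr6:58584283-58584582: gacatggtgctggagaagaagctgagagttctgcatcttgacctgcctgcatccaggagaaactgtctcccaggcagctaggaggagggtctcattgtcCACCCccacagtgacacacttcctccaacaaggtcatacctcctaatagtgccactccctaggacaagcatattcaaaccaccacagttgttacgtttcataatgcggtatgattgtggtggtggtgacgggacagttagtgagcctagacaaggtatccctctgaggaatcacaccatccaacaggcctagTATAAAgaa
Abcg2 start 2, chr6:58596422-58596721: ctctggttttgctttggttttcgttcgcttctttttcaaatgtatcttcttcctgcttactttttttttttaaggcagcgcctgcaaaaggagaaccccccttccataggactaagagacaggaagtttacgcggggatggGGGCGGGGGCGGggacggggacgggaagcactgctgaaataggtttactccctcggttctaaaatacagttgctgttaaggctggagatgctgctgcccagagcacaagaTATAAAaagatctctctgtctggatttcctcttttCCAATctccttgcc
Abcg2 start 3, chr6:58640296-58640595: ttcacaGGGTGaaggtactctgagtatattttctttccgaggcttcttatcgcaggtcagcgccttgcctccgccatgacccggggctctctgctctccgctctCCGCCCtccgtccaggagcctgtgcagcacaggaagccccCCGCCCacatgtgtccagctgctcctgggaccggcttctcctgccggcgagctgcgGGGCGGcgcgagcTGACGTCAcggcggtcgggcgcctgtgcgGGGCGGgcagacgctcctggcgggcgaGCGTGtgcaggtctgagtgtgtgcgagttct
Abcb1a, chr5:8566841-8567140: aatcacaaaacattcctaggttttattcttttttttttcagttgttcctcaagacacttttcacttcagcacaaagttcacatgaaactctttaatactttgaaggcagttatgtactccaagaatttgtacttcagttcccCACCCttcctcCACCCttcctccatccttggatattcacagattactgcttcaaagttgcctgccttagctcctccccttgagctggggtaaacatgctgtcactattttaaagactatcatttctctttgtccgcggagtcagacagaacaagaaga
Abcb1b, chr5:8797897-8798196: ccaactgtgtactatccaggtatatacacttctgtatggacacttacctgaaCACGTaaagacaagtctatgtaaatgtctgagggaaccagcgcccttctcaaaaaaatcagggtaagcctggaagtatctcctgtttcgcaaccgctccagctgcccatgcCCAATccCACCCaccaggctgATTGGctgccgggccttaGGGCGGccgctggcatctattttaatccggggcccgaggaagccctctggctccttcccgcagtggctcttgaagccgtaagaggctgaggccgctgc

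The motifs searched were the GC box GGGCGG, which 35.7% of 32851 RefSeq promoter windows of this length hold, the CCAAT box CCAAT (37.4%), the CACCC box CACCC (57.5%), the TATA box TATAAA (13.6%), the dioxin response core GCGTG (32.4%), the hypoxia response core ACGTG (19.6%) and the cyclic AMP response element TGACGTCA (1.8%). No matches of different motifs overlapped in the 5 windows. The window of Abcg2 start 3 was 67% G and C and held 4 GC boxes, 1 CACCC box and 1 dioxin response core. It also held the cyclic AMP response element, which began 37 bases before the start. The window of Abcg2 start 2 was 48.0% G and C, with 2 GC boxes in a row and, after its start, 1 TATA box match and 1 CCAAT box. That of start 1 held 1 TATA box match after its start, 1 CACCC box and no GC box. The Abcb1a window was 40.3% G and C and held only 2 CACCC boxes. The Abcb1b window was 55.0% G and C and held 1 CACCC box as well as 2 CCAAT boxes, 1 GC box and 1 hypoxia response core. The median over all windows was 52.7% G and C. A match is a description of letters and not a binding site.

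The signal values that follow are, unless a log2 level is named, the deposited signal intensities in linear units, scaled by the authors to a common trimmed mean per array. For the tests the arrays were quantile normalized, values under a floor of 104.77 signal units (the 25th percentile) were raised to it, and log2 values were fitted with limma over all 4 groups, with Benjamini-Hochberg adjustment over 10310 probe sets and a threshold of 0.05. Levels of different probe sets cannot be set against each other, so each pump is compared only with itself. Fewer cells of a type and less RNA per cell cannot be told apart in such bulk samples.

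Abcg2 RNA was highest in muscle SP cells, and muscle MP cells, which keep the dye, carried more of it than bone marrow SP cells. On the muscle SP arrays 1 to 5 the Abcg2 signal was 19133.3, 17772.6, 15640.4, 25930.0 and 33205.3, and on the muscle MP arrays it was 11476.4, 11309.0, 11783.3, 10165.6 and 13295.6. The lowest muscle SP array thus lay above the highest muscle MP array, with arrays 4 and 5 the highest of the SP group. On the bone marrow SP arrays the Abcg2 signal was 2348.1, 4457.5, 3350.6, 6352.4 and 5271.0, and on the bone marrow MP arrays it was 733.6, 758.7, 854.9, 805.5 and 893.9. No pair of the 4 groups overlapped for Abcg2. Of all probe sets, the groups did not overlap for 10.1% between muscle SP and muscle MP arrays and 20.1% between bone marrow SP and bone marrow MP arrays. The share was 23.4% between muscle SP and bone marrow SP arrays and 31.5% between muscle MP and bone marrow SP arrays. Between muscle MP and bone marrow MP arrays it was 39.7%, and for muscle SP against bone marrow MP arrays it was not counted.

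**Figure D1:**
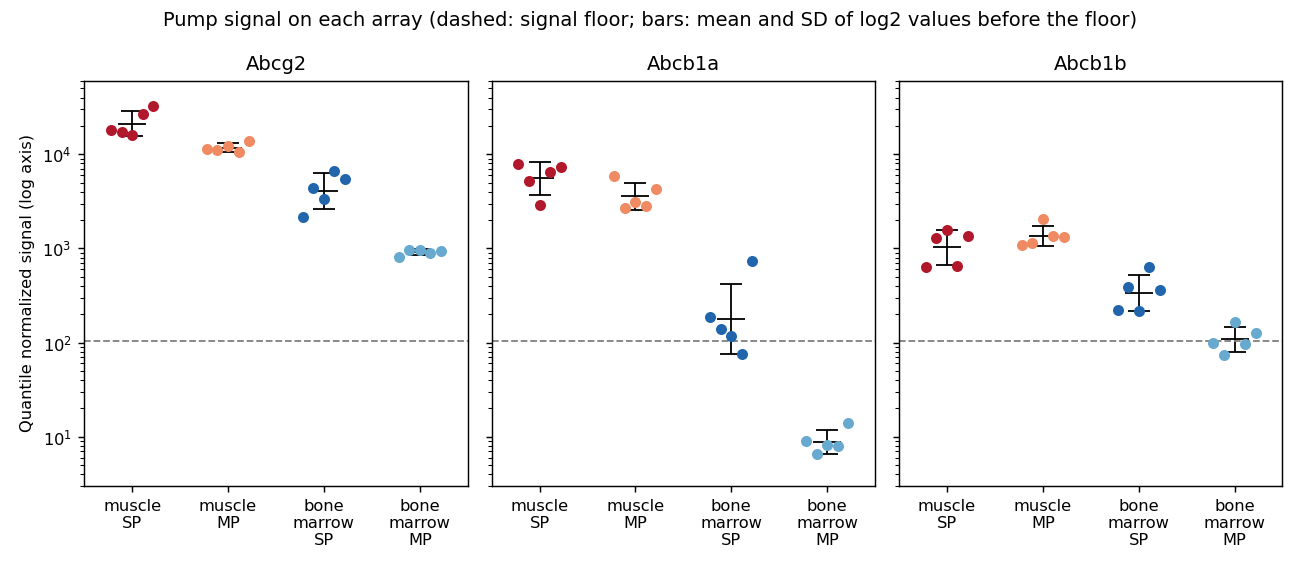
Quantile normalized signal (log axis) of Abcg2, Abcb1a and Abcb1b on each of 20 arrays, 5 per group, with the mean and SD of the log2 values before the floor as bars and the signal floor as a dashed line. Abcg2 steps down over the 4 groups as drawn, with the muscle groups first, Abcb1a drops below the floor on all 5 bone marrow MP arrays, and the 2 muscle groups overlap for Abcb1a and Abcb1b.

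The first question was whether SP cells carried more pump RNA than MP cells of the same tissue. In muscle, Abcg2 was 1.80-fold higher in SP cells (95% interval 1.26 to 2.57), at a mean log2 level of 14.37 ± 0.46 in SP and 13.53 ± 0.14 in MP samples (SD, n = 5 each; limma, adjusted p = 0.028). It was the only one of the 3 pumps to pass the test there, where 11.7% of all probe sets passed in either direction, 5.10% higher and 6.64% lower. The Abcg2 change ranked 423 from the top among 10310 probe sets. The call was lost without muscle SP array 4 (log2 0.76, adjusted p = 0.0708) or 5 (0.69, 0.0798), without muscle MP array 1 (0.83, 0.0532), 2 (0.83, 0.0588) or 4 (0.81, 0.0657), with median scaling (0.82, 0.0571) and with the GAPDH ratio described below as a covariate (0.83, 0.106), while the log2 change stayed between 0.69 and 0.95 over the arrays left out.

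Abcb1a did not pass in muscle, at 1.55-fold with a 95% interval of 0.891 to 2.71 (adjusted p = 0.334, limma). Its signal was 7424.4, 5047.6, 2892.2, 6280.7 and 7325.9 on the muscle SP arrays and 5932.5, 2694.6, 3268.2, 3014.1 and 4393.5 on the muscle MP arrays. The groups overlapped, with SP array 3 low and MP array 1 high in their groups. Abcb1b had a log2 difference of -0.39 ± 0.30 (SE), with a 95% interval from -1.01 to 0.22 (adjusted p = 0.465, limma). Its signal was 695.4, 1295.9, 1640.1, 639.1 and 1300.3 on the muscle SP arrays and 1049.5, 1115.0, 2114.4, 1399.4 and 1325.9 on the muscle MP arrays. SP arrays 1 and 4 were the lowest of the 10 for Abcb1b, and the other 3 SP arrays lay within the MP range.

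In bone marrow, Abcg2 and Abcb1b were higher in SP cells and Abcb1a did not pass, where 30.2% of all probe sets passed in either direction, 15.4% higher and 14.8% lower. Abcg2 was 4.48-fold higher (95% interval 3.14 to 6.40), at a mean log2 level of 12.00 ± 0.64 in SP and 9.84 ± 0.11 in MP samples (SD, n = 5 each; limma, adjusted p = 7.32e-07), and ranked 106 from the top. Abcb1b was 2.83-fold higher (95% interval 1.84 to 4.35), at 8.40 ± 0.64 in SP and 6.90 ± 0.29 in MP samples (SD, n = 5 each; limma, adjusted p = 0.000505). Its signal was 349.6, 435.1, 252.2, 720.3 and 380.0 on the bone marrow SP arrays and 87.1, 51.1, 125.1, 85.7 and 117.2 on the MP arrays, which did not overlap. After normalization 3 of the 5 MP values lay at the floor, and with the floor at the 40th percentile the Abcb1b call was lost (log2 0.49, adjusted p = 0.17).

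The split of all bone marrow calls moved with the scaling. Of the probe sets called, quantile normalization gave 50.9% as higher in SP cells, the deposited scaling alone gave 72.2% and median scaling gave 32.9%. The median change over all probe sets moved with it, at log2 0.02, 0.31 and -0.08. The log2 changes of Abcg2 were 2.16, 2.35 and 1.87 under these 3 scalings and those of Abcb1b 1.50, 1.87 and 1.54, each past the threshold.

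Abcb1a in bone marrow depended on how dim signal was treated. Its signal was 298.9, 154.5, 139.5, 114.9 and 731.9 on the SP arrays and 7.3, 3.9, 5.1, 6.0 and 11.5 on the MP arrays. Every SP array lay above every MP array, and SP array 5 stood highest by far. All 5 MP values and 1 SP value lay at the floor after normalization, so the fitted log2 change of 0.85 ± 0.39 (SE) was held down by the floor and did not pass (adjusted p = 0.108, limma). On the log2 of the deposited signal an exact two-sided permutation test over all splits of the 10 arrays gave p = 0.00794, the smallest it can give. It gives this p whenever the groups do not overlap, which on floored values held for 20.1% of all probe sets in bone marrow. The test had been planned only for probe sets that the filter removes, on floored log2 values. On those values the same permutation test gave p = 0.0476 for Abcb1a, whose groups then overlapped. With the floor at the 10th percentile the log2 change was 2.49 (adjusted p = 0.000167), with a pseudocount of 50 it was 2.00 (0.000163), and with a floor at 1 signal unit, chosen after the data were seen, it was 4.33 (5.04e-07). Without SP array 5 the log2 change was 0.36. The deposited values come with no detection call, so the size of a change against signals of 3.9 to 11.5 cannot be fixed.

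**Figure D2:**
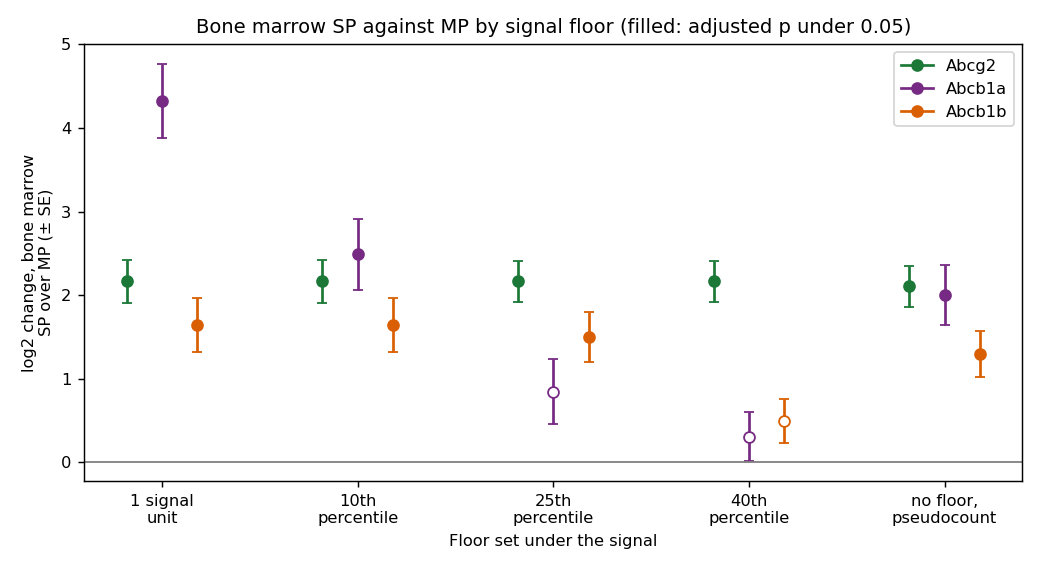
The log2 change of bone marrow SP over MP samples (± SE, 5 samples per group) for Abcg2, Abcb1a and Abcb1b by the floor set under the signal, with filled points where the adjusted p was under 0.05. Abcg2 stays near 2.16, whereas Abcb1a runs from 4.33 with a floor at 1 signal unit to 0.30 with a floor at the 40th percentile.

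The second question was whether the pumps differed between the tissues. All 3 were higher in muscle, whichever populations were compared. Between the SP groups, where 38.3% of probe sets passed in either direction with 17.1% higher and 21.2% lower in muscle, Abcg2 was 5.17-fold higher in muscle SP cells (95% interval 3.62 to 7.39; limma, adjusted p = 5.43e-08), Abcb1a 29.6-fold (17.0 to 51.7; adjusted p = 5.8e-10) and Abcb1b 3.05-fold (1.98 to 4.68; adjusted p = 0.000139). The Abcb1a change ranked 75 from the top. The muscle SP and bone marrow SP values of Abcb1b overlapped, since muscle SP arrays 1 and 4 (695.4 and 639.1) lay below bone marrow SP array 4 (720.3).

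Between the MP groups, where 46.5% of probe sets passed in either direction with 20.9% higher and 25.6% lower in muscle, Abcg2 was 12.9-fold higher in muscle MP cells (log2 3.69, 95% interval 3.17 to 4.20; limma, adjusted p = 2.24e-11) and Abcb1b 11.3-fold (7.38 to 17.4; adjusted p = 1.29e-09). For Abcb1b 3 of the 5 bone marrow MP values lay at the floor, so its fold was held down too. The geometric means of its deposited signal differed 15.2-fold. Abcb1a was at least 34.3-fold higher in muscle MP cells (limma, adjusted p = 1.75e-10), a bound because every bone marrow MP value lay at the floor. The groups did not overlap for any of the 3 pumps, and neither did those of 39.7% of all probe sets.

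Muscle MP cells, sorted for keeping the dye, also carried more RNA of all 3 pumps than bone marrow SP cells, sorted for losing it. This comparison was added after the levels were seen, and 45.0% of probe sets passed in it in either direction, 19.9% higher and 25.1% lower in muscle MP cells. Abcg2 was 2.87-fold higher (95% interval 2.01 to 4.10; limma, adjusted p = 2.59e-05), Abcb1b 4.01-fold (2.61 to 6.16; adjusted p = 8.14e-06) and Abcb1a 19.1-fold (10.9 to 33.3; adjusted p = 5.04e-09). For each pump all 25 pairs of a muscle MP and a bone marrow SP array had the muscle array higher in deposited signal. These 2 groups did not overlap, in either direction, for 31.5% of all probe sets after normalization.

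These tests give the order of the levels for each pump. Abcg2 was highest in muscle SP cells, followed by muscle MP cells, bone marrow SP cells and last the bone marrow MP cells, and each neighbouring pair passed the test. Abcb1a had the same order, but its muscle groups did not differ beyond their spread and its bone marrow groups passed only with a lower floor, with a pseudocount or with no further normalization. Abcb1b was highest in muscle MP and muscle SP cells, which did not differ beyond their spread, then in bone marrow SP cells and lowest in bone marrow MP cells.

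**Figure D3:**
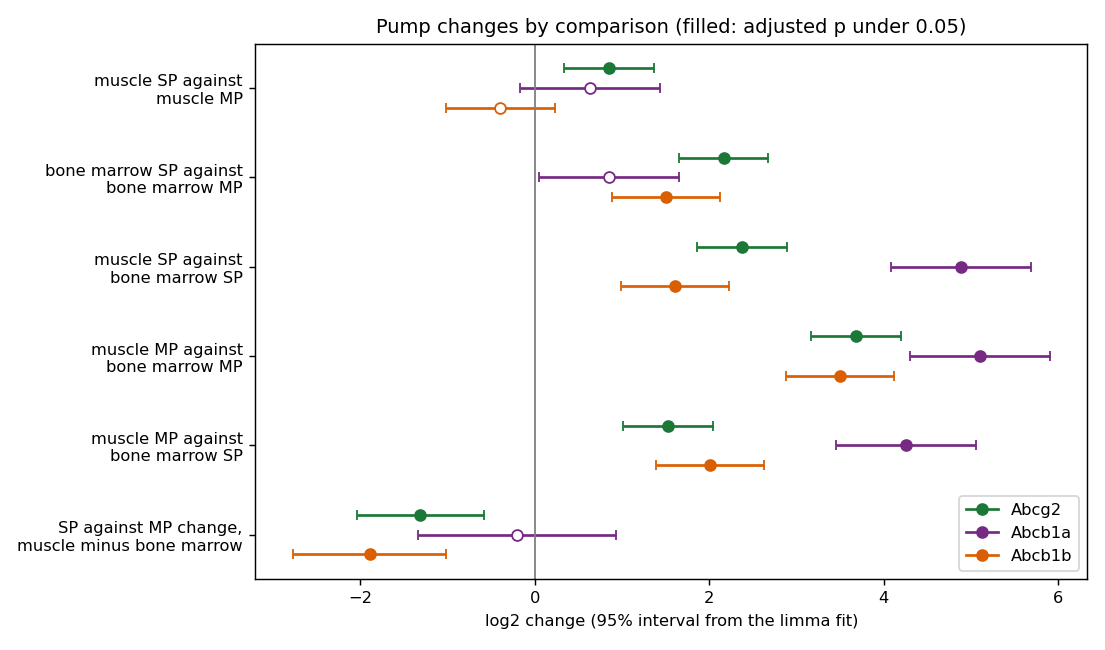
The log2 change and 95% interval of Abcg2, Abcb1a and Abcb1b in each comparison (5 samples per group), with filled points where the adjusted p was under 0.05. All 9 points of muscle against bone marrow lie above 0, and the SP against MP change in muscle passes for Abcg2 alone.

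The third question was whether the change of SP against MP differed between the tissues. For Abcg2 the muscle change was smaller than the bone marrow change by 1.31 ± 0.35 on the log2 scale (SE; difference -1.31, limma interaction, adjusted p = 0.0104), and for Abcb1b the difference was -1.90 ± 0.42 (adjusted p = 0.00278). Of all probe sets 18.5% passed in either direction, 8.69% with a higher and 9.85% with a lower change in muscle. For Abcb1a the difference was -0.21 ± 0.55 (adjusted p = 0.848), with its bone marrow change held down by the floor. The Abcg2 call was lost with median scaling (-1.05, adjusted p = 0.0662) and without the 3 arrays of highest GAPDH ratio (-0.88, 0.069), and the Abcb1b call with the floor at the 40th percentile (-0.89, 0.0977).

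The SD of the log2 level between arrays of a group was wider in SP than in MP samples for all 3 pumps, though the floor fixes or narrows it for Abcb1a and Abcb1b in bone marrow MP samples. For Abcb1a in muscle the order depended on the scale, since the coefficient of variation of the deposited signal was 32.5% in SP and 34.3% in MP samples. The SD of the Abcg2 log2 level was 0.46 in muscle SP, against 0.14 in muscle MP samples, and 0.64 in bone marrow SP, against 0.11 in bone marrow MP samples. The median SD over the probe sets that passed the filter was 0.40 in muscle SP, against 0.28 in muscle MP samples, and 0.41 in bone marrow SP, against 0.29 in bone marrow MP samples. The Abcg2 SD was therefore above the median in both SP groups and below it in both MP groups. No test of these spreads was run.

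The pumps were read beside other measures that moved with the groups. The log2 ratio between the GAPDH control probe sets at the 3' end and at the 5' end, which rises when RNA is degraded or amplified from its 3' end, ranged from 3.34 to 4.79 on muscle SP and 1.88 to 3.44 on muscle MP arrays, and from 2.94 to 4.23 on bone marrow SP and 1.49 to 3.31 on bone marrow MP arrays. With this ratio as a covariate the bone marrow change of Abcg2 still passed, and that in muscle did not, as given above. Of 12 endothelial markers measured, 5 were higher and 0 lower in muscle SP against muscle MP cells, with Selp (5.99-fold), Vwf (4.73-fold) and Sele (4.18-fold) ahead, and their summed normalized signal ran from 165591 to 198656 on muscle SP and from 105076 to 131679 on muscle MP arrays. In bone marrow 8 of the 12 were higher and 1 lower in SP cells, with sums of 7959 to 14648 on SP and 4337 to 4935 on MP arrays, and Tek, Tie1 and Cldn5 at the floor on all 5 MP arrays. Of 10 blood stem cell markers measured, 10 were higher in bone marrow SP cells, with Thy1 (at least 43.6-fold), Meis1 (11.5-fold) and Procr (10.3-fold) ahead and sums of 24884 to 39218 on SP and 4360 to 6416 on MP arrays, and 1 was higher in muscle SP cells, which was Mecom (2.70-fold). Of 12 T and NK cell markers measured, 6 were higher in muscle SP cells and 9 in bone marrow SP cells and 0 were lower in either, with Ccl5 (37.8-fold in muscle and 16.1-fold in bone marrow) ahead. Their sums were 4375 to 54203 on muscle SP and 1017 to 1859 on muscle MP arrays, and 46165 to 91147 on bone marrow SP and 5264 to 8982 on bone marrow MP arrays, while Cd3e and Cd3g, of the T cell receptor complex, did not exceed the floor on any muscle array. Tek stood in both the endothelial and the stem cell list, and Meis1 also in the list of transcription factors below. The part of these cells in the pump signals was not tested. Beside these counts, 11.7% of all probe sets passed in either direction between SP and MP cells of muscle, and 30.2% in bone marrow. The 1 of 10 blood stem cell markers in muscle lay near that share.

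The labels were read against markers in the same way. All 8 fibroblast markers were higher in muscle than in bone marrow in both populations, and all 12 granulocyte and monocyte markers were lower in muscle MP than in bone marrow MP cells. All 9 B lineage markers measured were lower in bone marrow SP than in bone marrow MP cells, and in muscle SP cells 1 was higher and 3 were lower. Against MP cells of their tissue, 4 of 12 granulocyte and monocyte markers, 4 of 7 satellite cell markers and 6 of 8 fibroblast markers were lower and 0 higher in muscle SP cells. In bone marrow SP cells these were 7 lower and 0 higher, 1 lower and 0 higher, and 1 lower and 1 higher. Of 10 erythroid markers measured, known from cells that also use Abcg2, 1 was higher and 0 lower in muscle SP cells and 3 were higher and 1 lower in bone marrow SP cells. Their summed normalized signal ran from 3725 to 22146 on muscle SP and 5132 to 10877 on muscle MP arrays, and from 37911 to 75756 on bone marrow SP and 20129 to 27765 on bone marrow MP arrays. Of all probe sets, 11.7% passed between SP and MP cells of muscle, 30.2% in bone marrow, 38.3% between the SP groups and 46.5% between the MP groups. The erythroid counts, and the satellite cell and fibroblast counts in bone marrow, lay near or under these shares and are not read as shifts.

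The pumps belong to a family of which 28 listed genes are on the arrays and 25 passed the filter. Abcc1 and Abcc6, exporters of organic anions, and Abcf2 did not pass it and have no test. In muscle 1 ABC gene was higher in SP cells (Abcg2) and 1 was lower, namely Abcc9, a potassium channel subunit known from smooth muscle and pericytes (1.77-fold lower, log2 -0.82 ± 0.22, SE; limma, adjusted p = 0.0177), whose probe set name carries an s suffix for possible cross-hybridisation. These were 2 of 25 genes, where 11.7% of all probe sets passed. Abcc9 was not among the called genes with no further normalization, with the filter at the median, with the bone marrow groups left out of the fit, with the GAPDH covariate, without muscle SP array 4 or without muscle MP array 3. With median scaling 0 ABC genes were higher and 2 lower in muscle SP cells. Abcc8 did not pass in muscle by its brighter probe set (log2 0.34 ± 0.24, SE; limma, adjusted p = 0.42), which stood for it. Its other probe set, also with an s suffix, was higher in muscle SP cells (log2 0.84 ± 0.26, SE; limma, adjusted p = 0.0372). Abcc8 was also called there with the mean over its probe sets. The median log2 change of the 25 genes was 0.13, against 0.03 for all probe sets. In bone marrow 6 were higher in SP cells and 1 was lower, with a median of 0.21, against 0.02 for all probe sets. These 7 of 25 genes lay near the background of 30.2% of all probe sets. The split moved with the scaling, at 13 higher and 1 lower with no further normalization and 4 higher and 3 lower with median scaling. Abcg2 had the largest fitted change of the 25 genes with the floor at the 25th percentile, but that of Abcb1a was larger with the floor at the 10th percentile, as given above.

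Beside Abcg2 and Abcb1b, the ABC genes higher in bone marrow SP cells were Abca1, Tap1, Abcg1 and Abcf1. Abca1, a cholesterol exporter, was 3.36-fold higher by its brighter probe set (log2 1.75 ± 0.32, SE; limma, adjusted p = 0.000231), but its other probe set had a log2 change of 0.06 ± 0.27 (adjusted p = 0.918). Tap1, a subunit of the peptide transporter that loads MHC class I, was 2.22-fold higher by its brighter probe set (adjusted p = 0.000585), with a log2 change of -0.50 ± 0.32 (SE) in the other (adjusted p = 0.269). Abcg1, another sterol exporter, was 1.61-fold higher (adjusted p = 0.00734), and Abcf1, a family member that acts in translation and not as a transporter, 1.58-fold (adjusted p = 0.00611). Neither Abcg1 nor Abcf1 was called with median scaling, Abcg1 was not called with the GAPDH covariate, and Tap1 was not called with the mean over its probe sets. Abcd2, a peroxisomal fatty acid transporter, was 3.39-fold lower (adjusted p = 6.15e-07) and lay at the floor on all muscle arrays. Abcb4, the neighbour of Abcb1b on chromosome 5, did not pass in muscle (log2 0.08 ± 0.21, adjusted p = 0.883) or bone marrow (0.30 ± 0.21, adjusted p = 0.301). Unlike Abcb1a and Abcb1b, it was lower in muscle than in bone marrow MP cells (log2 -0.69 ± 0.21, SE; limma, adjusted p = 0.00797).

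**Figure D4:**
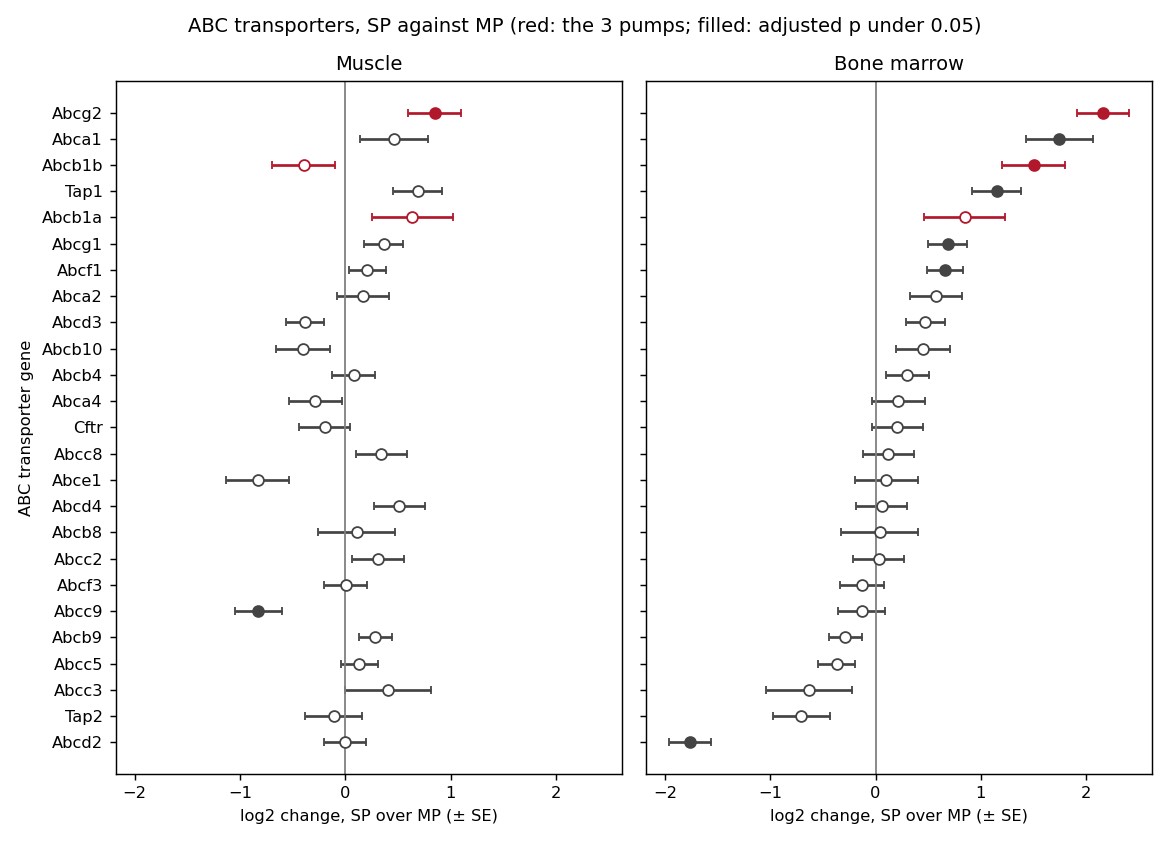
The log2 change of SP over MP samples (± SE, 5 samples per group) for the 25 ABC transporter genes that passed the filter, in muscle on the left and bone marrow on the right, ordered by the bone marrow change. Filled points have an adjusted p under 0.05, and the 3 pumps are red, with Abcg2 at the top in bone marrow at the floor used here and Abcc9 and Abcg2 the only filled points in muscle.

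Genes around the pumps were taken from 3 further lists. Of 19 measured transcription factors known from pump promoters, 0 passed in muscle, and 6 were higher and 1 lower in bone marrow SP cells. Of all probe sets 11.7% passed in muscle and 30.2% in bone marrow, and the bone marrow count lay near that share. The median log2 change of the list was 0.17 in muscle and 0.16 in bone marrow, against 0.03 and 0.02 for all probe sets. The largest bone marrow rises were Meis1, a homeobox factor of blood stem cells (11.5-fold, limma, adjusted p = 2.84e-09), Egr1, an immediate early factor (2.75-fold, adjusted p = 0.0043), Foxo3, a factor of quiescent cells (1.88-fold, adjusted p = 0.00906), and Jun (1.76-fold, adjusted p = 0.0304). In muscle, Meis1 lay at the floor on 4 of the 5 SP arrays and 2 of the 5 MP arrays. A link between Meis1 and the level of Abcg2 was not tested. Ahr and Hif1a, the receptor and factor behind the dioxin and hypoxia response cores searched above, were among the list members that did not pass in either tissue.

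Of 9 measured genes for membrane anchors and kinases of the pumps, 1 was higher in muscle SP cells and 1 was higher and 2 were lower in bone marrow SP cells. Ezr, which encodes the anchor protein ezrin, was 1.68-fold higher in muscle SP cells (limma, adjusted p = 0.0161), Pim1, a kinase known to phosphorylate the human ABCG2 protein, was 1.73-fold higher in bone marrow SP cells (adjusted p = 0.0147), and Msn, which encodes moesin, was 2.01-fold lower there (adjusted p = 0.00643), as was the endosomal Rab5a at 1.71-fold (adjusted p = 0.0136). Of 10 measured genes for heme synthesis and breakdown, 1 was higher in muscle SP cells, which was Cpox, an enzyme late in heme synthesis (1.85-fold, adjusted p = 0.0308). In bone marrow SP cells 2 were higher, Alad (2.00-fold, adjusted p = 0.00347) and Urod (1.74-fold, adjusted p = 0.00431), which act between the first step and the oxidation of porphyrinogens, and 1 was lower, Alas1, which makes the first precursor (2.28-fold lower, adjusted p = 0.000732). These counts stood against 11.7% of probe sets called in muscle and 30.2% in bone marrow.

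The probe sets whose log2 levels over the 20 arrays were most like those of each pump were named by their Pearson correlation, which is a description, since the arrays fall into 4 groups and share those differences. For Abcg2 these were Vwf (0.983), Pkp4 (0.982), Vegfc (0.979), Nckap1 (0.978) and Sash1 (0.971). Vwf encodes von Willebrand factor of endothelium and platelets, and Vegfc a growth factor of lymphatic vessels. With the group means removed, the correlations with Abcg2 were 0.821, 0.725, 0.750, 0.771 and 0.479. For Abcb1a they were Ace (0.982), Flt1 (0.981), Wwtr1 (0.980), Nacc2 (0.979) and Cpe (0.979), and for Abcb1b Gnas (0.958), Cdkn1c (0.956), Nckap1 (0.956), Itm2a (0.954) and Ndn (0.953). Ace encodes angiotensin-converting enzyme and Flt1 a VEGF receptor of endothelium, and the product of Cdkn1c holds back the cell cycle. The probe sets of Nacc2 and Gnas carry suffixes for possible cross-hybridisation (f and s), and that of Cpe carries a different suffix (i).

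Among the pumps themselves the correlation over the 20 arrays was 0.904 for Abcg2 with Abcb1a, 0.921 for Abcg2 with Abcb1b and 0.856 for Abcb1a with Abcb1b. With the group means removed these were 0.244, 0.440 and -0.254. Within groups Abcb1a and Abcb1b thus did not run together. Muscle SP array 1 was the highest of its group for Abcb1a and low for Abcb1b. Array 3 was the lowest for Abcb1a and the highest for Abcb1b. Array 4 lay at the group median for Abcb1a and was the lowest for Abcb1b. Array 5 went the other way, second highest of the group for both pumps (7325.9 and 1300.3).

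**Figure D5:**
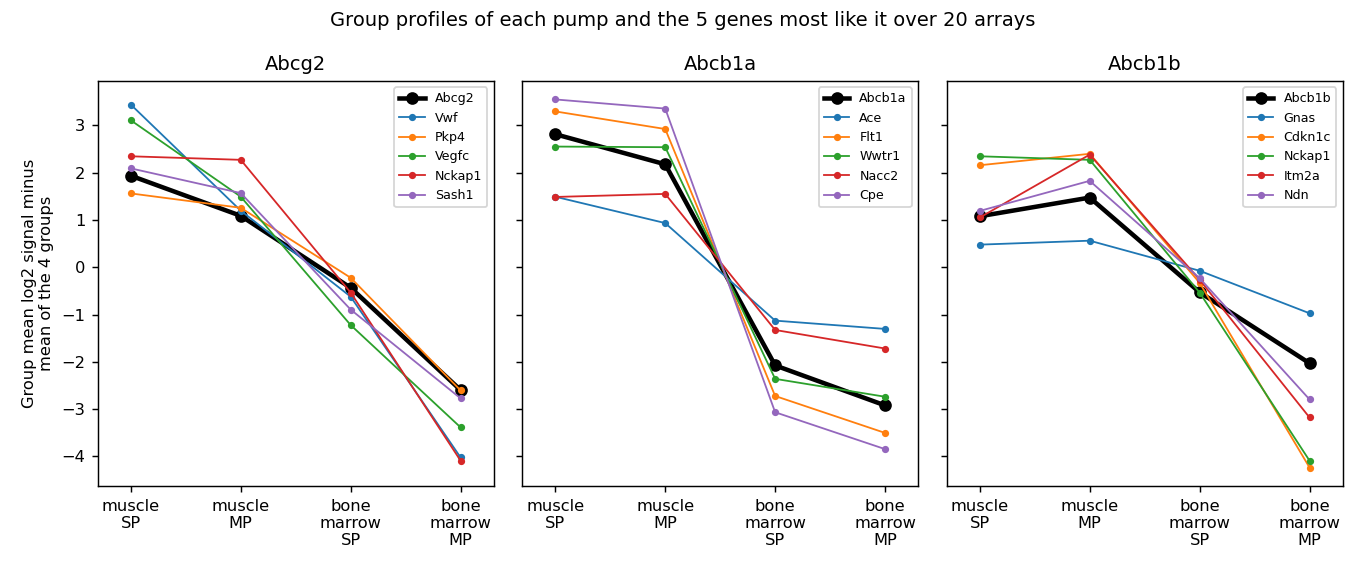
Group mean log2 signal minus the mean over the 4 groups, for each pump (thick black) and the 5 genes whose levels were most like it over 20 arrays (thin lines). The Abcg2 set falls at each step across the groups as drawn, the Abcb1a set falls mainly between the tissues, and Abcb1b and 4 of its 5 genes, all but Nckap1, are highest in muscle MP.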

How the data were processed

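RNA of 4 groups of 5 samples was measured on 20 expression arrays. The deposited values are signal intensity on a linear scale, which the authors had scaled to a 2%-trimmed mean of 1501 per array, as the values show. How probes were summarised and background was removed is not stated in the sources used here. Array medians lay between 318.1 and 612 units, and 5 arrays per group limit the precision. Of 12488 probe sets, 66 controls were left out. Arrays were quantile normalized, values under the 25th percentile (log2 6.71) were raised to it, and probe sets above it on at least 5 arrays were kept. One limma model (version 3.58.1, R 4.3.3) held all groups, with two-sided tests. Python 3.11.15 with matplotlib 3.10.9 made the figures. The fit was tested on simulated data with normal noise, the same SD in every group and no floor. That test therefore does not cover the wider spread of SP samples or values at the floor. Whether the Abcb1a and Abcb1b probe sets cross-hybridise was not tested. Symbols came from the platform annotation, checked by gene identifier against RefSeq, which changed 0. Promoter windows are RefSeq's for GRCm38.p6.

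The members and lists were chosen with earlier results of these data known. Named genes were the 3 pumps, other ABC genes past the threshold in SP against MP, the 5 most alike probe sets per pump, and up to 4 called genes per further list or 3 per marker list by size of change. A gene's brightest probe set stood for it. Alternatives were other scalings, floors and filters, a pseudocount, limma's trend and robust options, array weights, fits without the other groups, blocking on replicate number, the GAPDH ratio, and each array left out. The replicate numbers share no batch in the labels, and not every same-numbered pair deviated together.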

Additional observations from a re-analysis of the deposited data

Results flagged for a closer look

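The change of SP against MP differed between the tissues for 2 of the pumps. For Abcg2 the difference, muscle minus bone marrow, was -1.31 on the log2 scale (limma interaction, adjusted p = 0.0104), with SP higher on all 25 pairs of arrays in each tissue. Of all probe sets, the SP and MP groups did not overlap for 10.1% in muscle and 20.1% in bone marrow, in either direction. For Abcb1b the difference was -1.90 (limma interaction, adjusted p = 0.00278), with a log2 change of -0.39 in muscle that did not pass and 1.50 in bone marrow that did.

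Among the other ABC genes named, Abcd2 had a difference of 1.76 (limma interaction, adjusted p = 0.000117), which equals its bone marrow change with the sign turned, since all 10 muscle arrays lay at the floor. No array stood apart from the other 4 of its group for any pump by the gap between neighbours. The nearest was bone marrow SP array 5 for Abcb1a, whose gap was 0.707 of the range, against a limit of 0.71.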

How the results depend on the processing

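Of 609 checks of the 18 pump results, 587 kept direction and side of the threshold, among them all 306 of muscle against bone marrow. The cause of the other 22 was not tested. Many of the 609 checks could move the call but not the log2 change, so the count overstates how far the changes were tried. Such checks were an array left out of a group not compared, another filter and limma's trend and robust options. The replicate block and fits of only the groups compared were also of this kind. Abcg2 in muscle SP against MP (log2 0.85) was no longer called with median scaling (0.82) and the GAPDH covariate (0.83), and ran from 0.69 to 0.95 with arrays left out. Abcb1a in bone marrow (0.85) became called with no further normalization (1.11), the floor at the 10th percentile (2.49) or 1 signal unit (4.33, also chosen after seeing the data) and a pseudocount (2.00), and ran from 0.36 (without bone marrow SP array 5) to 1.06 with arrays left out. Abcb1b in bone marrow (1.50) was no longer called with the floor at the 40th percentile (0.49). For the difference between tissues, the Abcg2 call was lost with median scaling (-1.05) and without the 3 arrays of highest GAPDH ratio (-0.88), an alternative chosen after seeing the data, and the Abcb1b call with the floor at the 40th percentile (-0.89). That of Abcb1a (-0.21, not called) turned to 0.33 with the floor at the 40th percentile, 0.050 with array weights, 0.039 without the 3 arrays of highest GAPDH ratio, 0.03 without muscle SP array 3 and 0.28 without bone marrow SP array 5, and was called at the 10th percentile (-1.85) and at 1 signal unit (-3.69). With arrays left out it ran from -0.42 to 0.28.

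ABC genes called in muscle (2) numbered 5 with array weights and without the 3 arrays of highest GAPDH ratio, 1 when the bone marrow groups were left out of the fit and 1 with the GAPDH covariate, and 0 to 3 with arrays left out (0 without muscle SP array 4). In bone marrow (7) they numbered 14 with no further normalization and 7 to 9 with arrays left out.

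Same-numbered samples of muscle SP and MP had correlations of 0.07 to 0.21 in their deviations, and those of bone marrow SP and MP -0.14 to 0.21, with 0 and 1 of 5 correlating best with their own number. With the replicate number as a block, the calls of all 18 pump results were unchanged, and 3 ABC genes were called in muscle and 7 in bone marrow. The log2 changes could not move under this block, since every group holds every replicate number. Signals near or under the floor, as of Abcb1a and Abcb1b in bone marrow MP samples, limit what the arrays can show.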
